A study of Arabidopsis thaliana with 16 samples.

Results

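The comparison described here set 2 arrays of lhy-21; cca1-11 double mutant seedlings (written lhy cca1) against 2 arrays of Wassilewskija (WS) wild type seedlings, both sampled 30 min after dawn, out of 16 arrays in the series. The members are the arrays whose labels give that genotype and that time, and the measurement covers every non-control probe set of the Affymetrix ATH1 array, a set of oligonucleotides that reports 1 transcript or a few alike ones. Whole seedlings were grown for 9 days at 22 °C in 18 h of light and 6 h of dark per day, on medium with 3% sucrose, after 4 days of cold at 4 °C, under light of 60 to 65 µE. By their labels the lhy cca1 and WS groups shared all of this and differ in the 2 mutant alleles and whatever else separates the lines. Plates or handling that went with genotype could differ too, and cannot be told apart from it. The other arrays hold the same genotypes, in pairs, at 15 min before dawn, at 15 min and at 60 min past dawn, and those before dawn serve here to ask which differences are new since dawn. All seedlings of a plate were harvested together, so an array averages over plants and over tissues, and fewer cells of a type and less RNA per cell cannot be told apart. The labels do not say whether the 2 replicates of a group came from separate plates, so the spread behind each p-value may be only technical.

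LHY and CCA1 are related MYB transcription factors of the plant circadian clock whose transcripts peak around dawn. In wild type they bind the evening element in the promoters of evening genes, among them GI and TOC1, and hold those genes low in the morning. Dawn itself is a light signal that resets the clock and starts photosynthetic metabolism, so plants with and without both factors meet the same light at a different clock state. The series was set up to look for candidates for Y, a component that clock models placed under induction by light and repression by LHY and CCA1. No probe set is named for LHY or CCA1 in the annotation used here, so the genotype labels could not be checked on the mutated genes.

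The deposited values are signals in arbitrary units, scaled so that each array had the same trimmed mean of 100.01, and all signals below are on that linear scale while all differences are log2, lhy cca1 minus WS. The arrays of a genotype correlated at 0.978 for lhy cca1 and at 0.98 for WS across probe sets. RCA and PRK, shoot markers of carbon fixation, had signals of 6229 and 5613 and of 3317 and 3219 in lhy cca1, against 6859.8 and 6028 and 3369 and 3156 in WS. PYK10, a root marker, had 4153 and 3866 in lhy cca1 and 3484 and 3786 in WS. Both organs of a whole seedling were thus in the samples of either genotype. The 2 tested root markers differed by 0.14, for PYK10, and by 0.64, neither past the threshold used below. The 25S rRNA control signal was 62.8 and 419 in lhy cca1 against 91.8 and 88.1 in WS. The lhy cca1 replicate 2 array was thus far above its partner in rRNA signal. The lhy cca1 replicate 2 arrays of the other times were high too, with 538 before dawn, 569 at 15 min and 258 at 60 min. WS arrays of all times ran from 57.7 to 163, and lhy cca1 replicate 1 arrays from 62.8 to 253. The part of the rRNA signal in the results was not tested beyond the fits given below. These left out that array or all lhy cca1 replicate 2 arrays, or took the rRNA signal as a covariate.

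Of 14878 probe sets with enough signal to be tested, 159 (1.07%) differed between lhy cca1 and WS at 30 min at a Benjamini-Hochberg adjusted p under 0.05 in limma, a linear model fitted to all probe sets with the spread estimated over all 16 arrays. Of these, 99 (0.665%) were higher and 60 (0.403%) lower in lhy cca1. The fitted difference was at least 1 log2 in size for 55 of the higher and 24 of the lower probe sets, some of them with signals near background that leave the fold unmeasured. The median difference over all tested probe sets was 0.03 with an SD of 0.37, and the smallest difference called was 0.56 in size. The median size among the 159 was 1.00. An annotation with 1 gene was available for 73 of them, which stand for 72 genes, 45 higher and 27 lower. Without adjustment, p was under 0.05 for 1662 probe sets (11.2%). The arrays of the genotypes did not overlap for 6639 probe sets (44.6%), so lack of overlap alone, which all 159 showed, separates little at this number of arrays.

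The balance between higher and lower depended on how the arrays were scaled. Higher probe sets made up 62.3% of the calls on the deposited scale, 58.6% after quantile normalization, 51.1% with each array centred on its median over tested probe sets and 36.8% with centring over all probe sets. The last moved all differences down by 0.107 log2. Directions of the called genes named below were the same after quantile normalization. Centring could not turn them, because it moved all differences alike and by less than the smallest called, 0.56 in size. The excess of higher over lower probe sets held under some scalings and not under others.

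**Figure D1:**
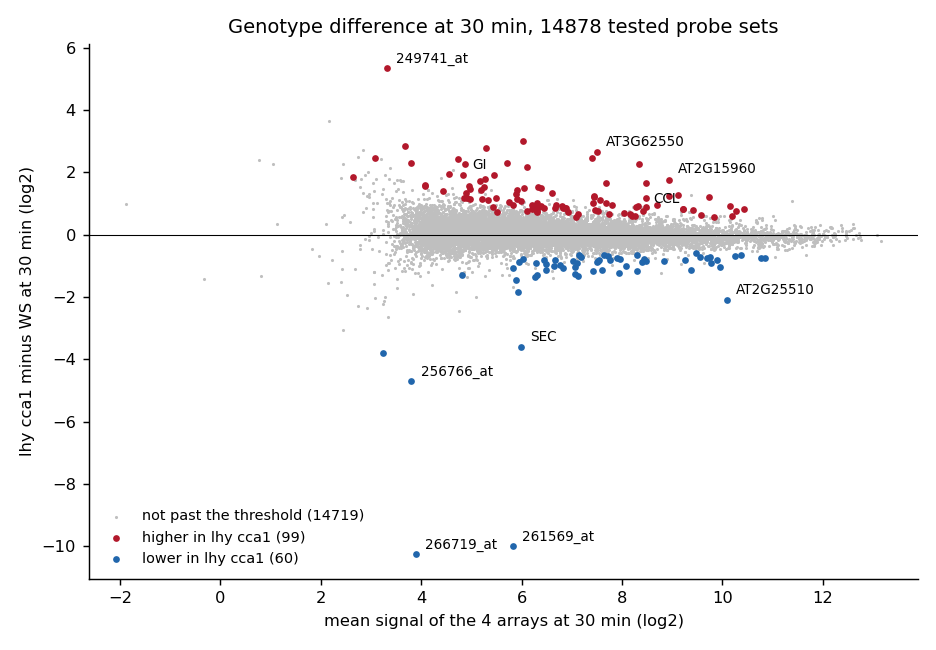
Difference between genotypes at 30 min (y axis, log2, lhy cca1 minus WS) against the mean signal of the 4 arrays (x axis, log2) for 14878 probe sets. Red points mark the 99 probe sets higher in lhy cca1 and blue points the 60 lower, with 261569_at and 266719_at at -9.99 and -10.27 and SEC at -3.59.

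The largest differences were lower signals in lhy cca1, near background in the mutant. SEC, the gene of an enzyme that adds O-linked N-acetylglucosamine to proteins, had signals of 18.5 and 18.1 in lhy cca1, against 231 and 211 in WS. A signal at or below the 40th percentile of its array is called dim here (19.3 to 21.3 on these 4 arrays), and SEC was dim on both lhy cca1 arrays. Its difference was -3.59 ± 0.231 log2 (SE, n = 2 arrays each, limma adjusted p = 1.46e-07), and because a dim signal gives only a bound it is stated as at least 10.5-fold lower, the WS mean set against that percentile. AT3G04230, the gene next to SEC on its chromosome, was lower by less. It had 93.9 and 91.5 in lhy cca1 and 213 and 171 in WS, a difference of -1.04 ± 0.158 (limma adjusted p = 0.0033). This was the only adjacent pair of named genes among the 72 that passed.

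Probe sets with no gene listed here held the most extreme values on the lower side. 261569_at had 1.4 and 2.3 in lhy cca1, against 1746 and 1907 in WS, and was at least 86.5-fold lower (limma adjusted p = 6.21e-11). 266719_at had 0.37 and 0.492 in lhy cca1, against 451 and 614 in WS, and was at least 24.97-fold lower (limma adjusted p = 1.82e-08). Both were dim on both lhy cca1 arrays, far below either WS array. 256766_at was at least 3.39-fold lower, with 1.67 and 4.52 in lhy cca1 and 63.4 and 80.4 in WS. 250476_at was at least 1.67-fold lower (limma adjusted p = 0.0487), a call that was lost on leaving out any array at 30 min but lhy cca1 replicate 1 (adjusted p up to 0.481).

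Among genes with a measurable signal in both genotypes, AT2G25510 was the most strongly lower. Its signals were 628 and 449.6 in lhy cca1, against 2444 and 2079.9 in WS, a difference of -2.09 ± 0.238 (limma adjusted p = 0.000179). The next largest, AT2G27420, encodes a cysteine proteinase, with 35.6 and 28.9 in lhy cca1 and 104 and 129 in WS (-1.85 ± 0.299, limma adjusted p = 0.00494). AT1G10850, which encodes a receptor-like kinase with leucine-rich repeats, had 52.7 and 43.5 in lhy cca1 against 116 and 132 in WS (-1.37 ± 0.193, limma adjusted p = 0.00173). In each of these 3 genes the higher lhy cca1 array lay below the lower WS array, a lack of overlap that all 159 called probe sets showed.

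The other lower genes of the 10 largest differed by less than AT2G27420. AT1G60590, of the pectin lyase-like family, had 161 and 156 in lhy cca1 and 391 and 361 in WS (-1.24 ± 0.155, limma adjusted p = 0.000446). AT5G58390, a peroxidase, differed by -1.28 ± 0.19 (limma adjusted p = 0.00288). LHCB4.3, an antenna protein of photosystem II, had 106 and 70.4 in lhy cca1 and 224 and 196 in WS (-1.27 ± 0.222, limma adjusted p = 0.00817), and lost the call without WS replicate 1 or without lhy cca1 replicate 2 (adjusted p = 0.133 and 0.187). AT1G70985, AT1G23205 and AT1G65490 were lower by 1.45, 1.33 and 1.18 log2 (limma adjusted p = 0.0302, 0.0156 and 0.00835). Chosen after their values were seen for their known roles, lower genes with smaller differences were GIS, a zinc finger protein of trichome development (-1.12), GTR1, a glucosinolate transporter (-0.71), XTH32, an enzyme that remodels xyloglucan (-0.68), and AT1G56190, a phosphoglycerate kinase (-0.58), with 581 and 577 in lhy cca1 against 892 and 837 in WS.

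On the higher side, AT3G62550, of the universal stress protein family, stood out among named genes by size and precision. Its signals were 433 and 485 in lhy cca1, against 70.9 and 73.2 in WS, a difference of 2.67 ± 0.183 (6.36-fold, limma adjusted p = 2.48e-07). CCL, a clock-regulated gene whose mRNA is known for its short life, had 608 and 666 in lhy cca1 and 215 and 187 in WS (1.67 ± 0.159, limma adjusted p = 2.71e-05). AT1G54410, which encodes a small histidine-rich dehydrin, had 809 and 911 in lhy cca1 and 351 and 363 in WS (1.27 ± 0.135, limma adjusted p = 0.000101). These 3 genes were at about the same level on both lhy cca1 arrays, which a choice by precision favours. Some other called genes, given below, lay far apart on those arrays.

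AT2G30600, which encodes a protein with a BTB/POZ domain, was higher on both of its probe sets, by 1.93 ± 0.252 and 1.51 ± 0.25. The first had 69.1 and 105 in lhy cca1, against 19.2 and 26.1 in WS. AT4G32340 had 155 and 128 in lhy cca1 and 49.6 and 49.2 in WS (1.51 ± 0.174, limma adjusted p = 0.000179). PDC2, a pyruvate decarboxylase of fermentation, had 156 and 119 in lhy cca1 and 46.7 and 46.5 in WS (1.55 ± 0.269, limma adjusted p = 0.00817). The mutant arrays of AT2G15960 lay far apart. It had 554 and 1447 in lhy cca1 and 248 and 282 in WS (1.76 ± 0.321, limma adjusted p = 0.0124), and without lhy cca1 replicate 2 its difference was 1.07 (adjusted p = 0.179). It also lost the call without WS replicate 1 or WS replicate 2 (adjusted p = 0.139 and 0.0666).

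Other genes of the 10 largest rested on weak signals. GI (GIGANTEA), an evening-expressed clock gene that also promotes flowering in long days, had 54.5 and 57.5 in lhy cca1, against 18.9 and 11.4 in WS, where it was dim. It exceeded WS by at least 2.88-fold (limma adjusted p = 0.0414), with no overlap between genotypes, and the call was lost on leaving out any of the 4 arrays (adjusted p = 0.113 to 0.287) and under each of the other scalings (adjusted p = 0.052 to 0.0541). AT2G03310 and AT2G23840 likewise had dim WS signals. The first was higher in lhy cca1 by at least 1.76-fold (limma adjusted p = 0.0258, up to 0.232 with 1 array left out) and the second by at least 1.51-fold (limma adjusted p = 0.0303, up to 0.241). NCRK and AT4G10910 passed the threshold with dim signals in both genotypes, and no fold is given for them. Among the unlisted probe sets, 265478_at had 353 and 445 in lhy cca1 and 65.3 and 78.6 in WS (2.47 ± 0.168). 259751_at was at least 5.26-fold and 249741_at at least 3.30-fold higher in lhy cca1, both dim in WS, and the call of 249741_at was lost without lhy cca1 replicate 2 (adjusted p = 0.0712). 252415_at had 108 and 322 in lhy cca1 and 19.1 and 27.4 in WS (3.02 ± 0.448). Its difference was 2.76 without WS replicate 1 (adjusted p = 0.0656), 2.23 without lhy cca1 replicate 2 (adjusted p = 0.0622) and 3.81 without lhy cca1 replicate 1.

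**Figure D2:**
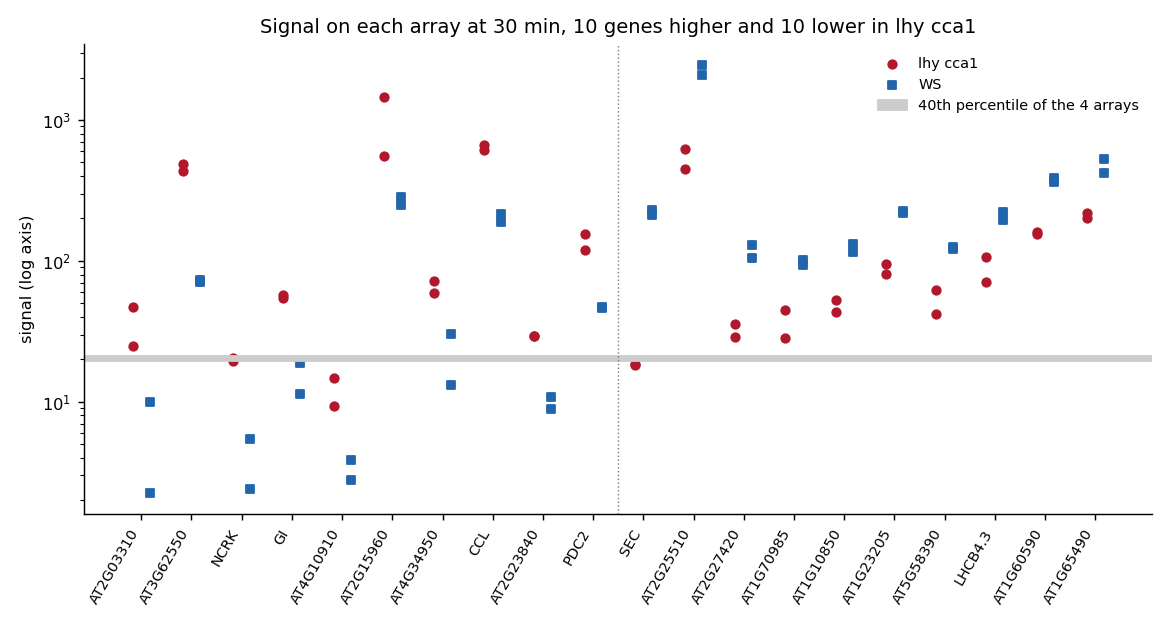
Signal (log axis) on each of the 4 arrays at 30 min for the 10 genes with the largest higher and the 10 with the largest lower differences, lhy cca1 as red circles and WS as blue squares. The grey band spans the 40th percentiles of the arrays (19.3 to 21.3), below which a signal is dim, and no gene has overlapping genotypes.

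Only 19 of the 159 probe sets, 13 higher and 6 lower, passed in each of the fits that left out 1 of the 4 arrays at 30 min. Those of them with a listed gene were SEC, AT2G25510 and AT1G60590, lower in lhy cca1. The higher ones were AT3G62550, CCL, AT1G54410, AT4G32340, AT2G30600, AT1G19370 and AT5G62350. AT2G30600 stands there for its probe set with a difference of 1.93. Its other probe set, at 1.51, lost the call without WS replicate 1 or lhy cca1 replicate 2, with differences of 1.23 to 1.8 over these fits. Of the other 140, none changed sign in any of these fits, an outcome fixed in advance because the genotypes did not overlap for any of the 159. AT1G10850 and AT5G58390 lost the call without lhy cca1 replicate 2 (adjusted p = 0.053 and 0.072) and no other array at 30 min. PDC2 lost it without any array but lhy cca1 replicate 2 (adjusted p up to 0.093), AT2G27420 without the second replicate of either genotype (up to 0.0912) and AT1G23205 without any single array (0.0545 to 0.205). The total was 30 probe sets without WS replicate 1, 59 without WS replicate 2, 79 without lhy cca1 replicate 1 and 26 without lhy cca1 replicate 2. With the 25S rRNA signal as a covariate 118 probe sets passed, 111 of them among the 159.

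Most of the 72 genes lie outside the pathways that were looked at as lists, partly because the annotation names few members of each. Of the clock lists, only AT5G52660, a relative of LHY and CCA1, and GI had a tested probe set. AT5G52660 had 52.8 and 49.4 in lhy cca1 and 44.5 and 69.2 in WS, with the lhy cca1 values inside the WS range (-0.12 ± 0.224, limma adjusted p = 0.908). Of the flowering-time list 2 genes were tested and neither passed in limma, nor had an unadjusted p under 0.05. AT1G26790, of the Dof family of transcription factors, had 19.5 and 9.59 in lhy cca1 against 46.9 and 50.8 in WS (limma adjusted p = 0.46), and SMZ, an AP2-type repressor of flowering, differed by -0.28 ± 0.283. HYH, a bZIP factor of light signalling, differed by -0.23 ± 0.168 (limma adjusted p = 0.697), and the lists of B-box proteins, seed and flower markers had no named probe set.

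Of 7 tested genes of phenylpropanoid and flavonoid synthesis 1 was lower, none was higher and 6 did not pass, against 0.403% lower among all tested probe sets. The list's median difference was -0.52, against 0.03 over all. CHIL, a chalcone isomerase-like protein, was the member that passed, with 42.6 and 35.7 in lhy cca1 and 96.3 and 69.8 in WS (-1.07 ± 0.208, limma adjusted p = 0.0188). It lost the call without WS replicate 1 or either lhy cca1 array (adjusted p = 0.0511 to 0.265). The glycosyltransferase UGT78D2 had 239 and 216 in lhy cca1 and 406 and 293 in WS (-0.60 ± 0.165, limma adjusted p = 0.112), and DFR, dihydroflavonol reductase, had 31.5 and 28.8 against 42.9 and 43.3 in WS (-0.52 ± 0.253, limma adjusted p = 0.467). UGT84A3 differed by 0.02 and was the member nearest to no difference, with a negative sign after quantile normalization or centring.

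Genes of the sugar starvation list, which plants switch on when carbon runs short, had positive differences in 4 of 4 tested members, with a median of 0.64, against 54.8% positive and a median of 0.03 among all tested probe sets. None passed in limma, and 3 had an unadjusted p under 0.05. IVD, which encodes isovaleryl-CoA dehydrogenase of leucine breakdown, had 132 and 173 in lhy cca1 and 82.1 and 88.4 in WS (0.82 ± 0.215, limma adjusted p = 0.0883). MCCA, a subunit of methylcrotonyl-CoA carboxylase in the same pathway, had 118 and 169 in lhy cca1 and 67.2 and 84.1 in WS (0.91 ± 0.255, limma adjusted p = 0.12). MCCB, its other subunit, differed by 0.45 and AKINBETA1, a subunit of the SnRK1 kinase complex, by 0.14. Without lhy cca1 replicate 2 the list's median was 0.45, with 3 of 4 members positive. Before dawn the sugar starvation list had a median of 0.71, and MCCA passed at that time (1.12, limma adjusted p = 0.0328). Of the 3 tested starch genes none passed or had an unadjusted p under 0.05 at 30 min (median 0.25). Their largest difference was that of APL3, dim in both genotypes.

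In the cold response list 1 of 5 tested genes was higher, against 0.665% of all tested probe sets, none lower and 4 did not pass, with a list median of 0.22. LTI30, a dehydrin, had 114 and 120 in lhy cca1 and 64.5 and 64.1 in WS (0.86 ± 0.2, limma adjusted p = 0.0487), a call lost on leaving out any array at 30 min (adjusted p = 0.169 to 0.343). COR47, another dehydrin, had 480.2 and 517 in lhy cca1 and 397 and 341 in WS (0.44 ± 0.166, limma adjusted p = 0.296), and COR15A had overlapping genotypes. HAT2, a homeodomain protein of the auxin and shade responses, was the only tested member of its list and had 107 and 101 in lhy cca1 and 57.2 and 64.8 in WS (0.77 ± 0.174, limma adjusted p = 0.0417, and 0.132 to 0.353 with 1 array left out). LTI30 and HAT2 also failed the threshold under the other scalings (adjusted p = 0.0606 to 0.0817).

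Chloroplast genes were tested each on its own, and a common change was not tested. LHCB4.1 and LHCB4.2, close relatives of LHCB4.3, had differences of 0.24 and 0.06 at 30 min (limma adjusted p = 0.49 and 0.932). Thus 1 of the 3 tested antenna genes was lower, against 0.403% of all tested probe sets, and 2 did not pass. Before dawn LHCB4.1 was higher in lhy cca1 by 0.54 (limma adjusted p = 0.0337), and the list's median was 0.31. The sign of the list's median at 30 min changed with centring over all probe sets (0.06 on the deposited scale, -0.05 centred). PORB and CHLM of chlorophyll synthesis differed by 0.46 and 0.30 and did not pass, 1 of them with an unadjusted p under 0.05. Of 69 tested genes encoded in the plastid genome none passed, and 4 had an unadjusted p under 0.05, against 11.2% of all tested probe sets. A positive difference was found for 54 of the 69 (median 0.24), against 54.8% and a median of 0.03 among all, with 49 positive (median 0.13) after centring on all probe sets and 48 (median 0.19) without lhy cca1 replicate 2. Before dawn the plastid list had a median of 0.31, and 1 member passed. At 30 min the smallest adjusted p was that of ndhE, a subunit of the plastid NADH dehydrogenase-like complex. It had 575 and 444 in lhy cca1 and 323 and 301 in WS (0.70 ± 0.228, limma adjusted p = 0.199). BCAT4, of aliphatic glucosinolate synthesis, differed by -0.45 ± 0.232 and 3 iron-response genes by -0.35 to 1.03, none past the threshold. The 1.03 was that of BHLH101, the only iron gene with an unadjusted p under 0.05. It was dim in both genotypes, so its difference has no measured size.

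**Figure D3:**
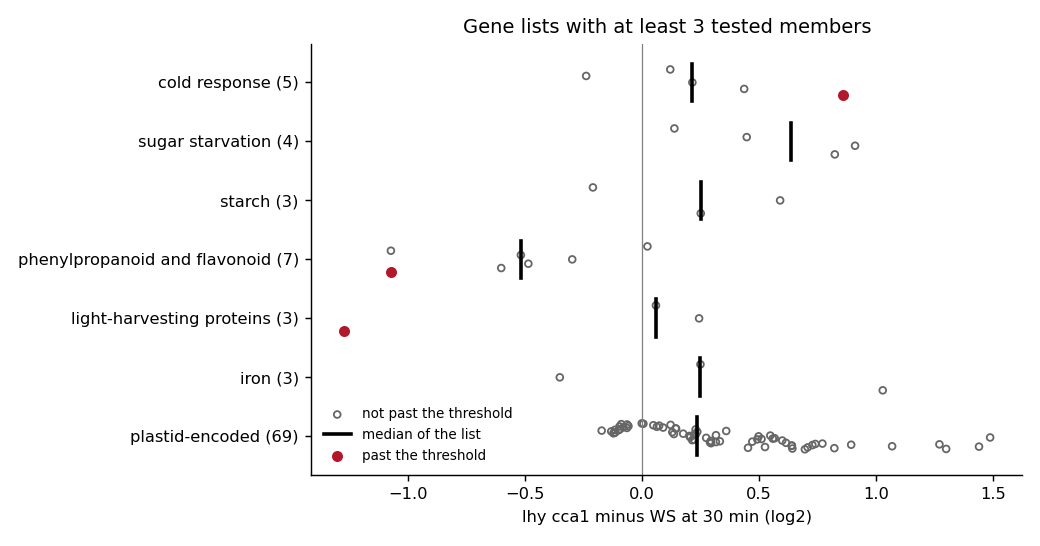
Difference at 30 min (x axis, log2, lhy cca1 minus WS) of each tested gene in the gene lists with at least 3 tested members, whose number stands in parentheses. Filled red points passed the threshold (LTI30, CHIL and LHCB4.3), open points did not, and the bar is the list's median, from -0.52 for phenylpropanoid and flavonoid genes to 0.64 for sugar starvation genes.

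To see which differences are new since dawn, the difference between genotypes at 30 min was set against the difference 15 min before dawn, when 239 probe sets (1.61%) differed, 139 higher and 100 lower in lhy cca1. A difference counts as new if it passed at 30 min, did not pass before dawn, and the change of the difference itself passed in the same direction. No probe set met this. The change passed for 0 of 14878 probe sets (0%) in limma, with a smallest adjusted p of 0.0978. At an unadjusted p under 0.05 there were 695 (4.67%). That share is no larger than the threshold itself lets through when nothing changes. The median standard error of a change was 0.282 log2, against 0.199 for a difference at 1 time, so a change needs to be larger than a difference to be seen with 2 arrays per group. The replicate number was added to the model as a check only, since these numbers were not treated as a pairing. The change then passed for 250665_at and 256266_at (limma adjusted p = 0.0245). Both differences were smaller at 30 min, so neither is new.

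Of the 159 probe sets called at 30 min, 66 were called in the same direction before dawn, 35 higher and 31 lower, and none in the opposite direction. They were 41.5% of the calls at 30 min and 27.6% of those before dawn. Their median size was 1.06 at 30 min and 1.10 before dawn, and 28 of the 66 were larger at 30 min. The remaining 93 were called at 30 min only, and of them 88 had the same sign before dawn. Conversely 173 were called before dawn only, and 164 of those had the same sign at 30 min. Of the 159 called at 30 min, 121 were larger in size at that time than before dawn, and of the 239 called before dawn, 210 were larger before dawn. Each set was chosen at the time at which most of its members were larger, which such a choice tends to give.

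Some of the genes with the largest differences at 30 min were already apart before dawn. SEC had 13.6 and 10.3 in lhy cca1, against 155 and 169.7 in WS before dawn, dim in lhy cca1 at both times, so that a change in its difference has no measured size. AT2G25510 had 659 and 469 in lhy cca1 and 2243 and 2280.4 in WS before dawn, a change of -0.06 with a 95% interval of -0.77 to 0.65. The unlisted probe sets 261569_at (1.9 and 4.95 in lhy cca1, 1258 and 1307 in WS) and 266719_at (2.88 and 0.59 in lhy cca1, 382 and 395 in WS) were likewise dim in lhy cca1 at both times. AT1G10850 (change 0.22) and CHIL (0.11) likewise passed at both times, and so did AT3G04230, beside SEC, at -1.12 before dawn. On the higher side AT3G62550 had 552 and 641 in lhy cca1 and 159 and 137 in WS before dawn, with both genotypes at smaller signals at 30 min. Its difference was 2.67 at 30 min and 2.01 before dawn, a change of 0.66 (0.11 to 1.21) with an unadjusted p of 0.0218. CCL had a difference of 1.67 at 30 min, against 0.98 before dawn (change 0.68, 0.21 to 1.16, unadjusted p = 0.00773). As a ratio between the times, WS signals differed more than lhy cca1 signals did in both genes, but neither change passed after adjustment.

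For GI the question of timing could not be settled on these signals. Its lhy cca1 signals were 11.8 and 11.8 before dawn, against 2.21 and 7.98 in WS, dim in both genotypes, so the difference of 1.48 before dawn (limma adjusted p = 0.106) rests on background values. At 30 min the lhy cca1 arrays alone were above the 40th percentile. The fitted change (unadjusted p = 0.476) therefore has no measured size.

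**Figure D4:**
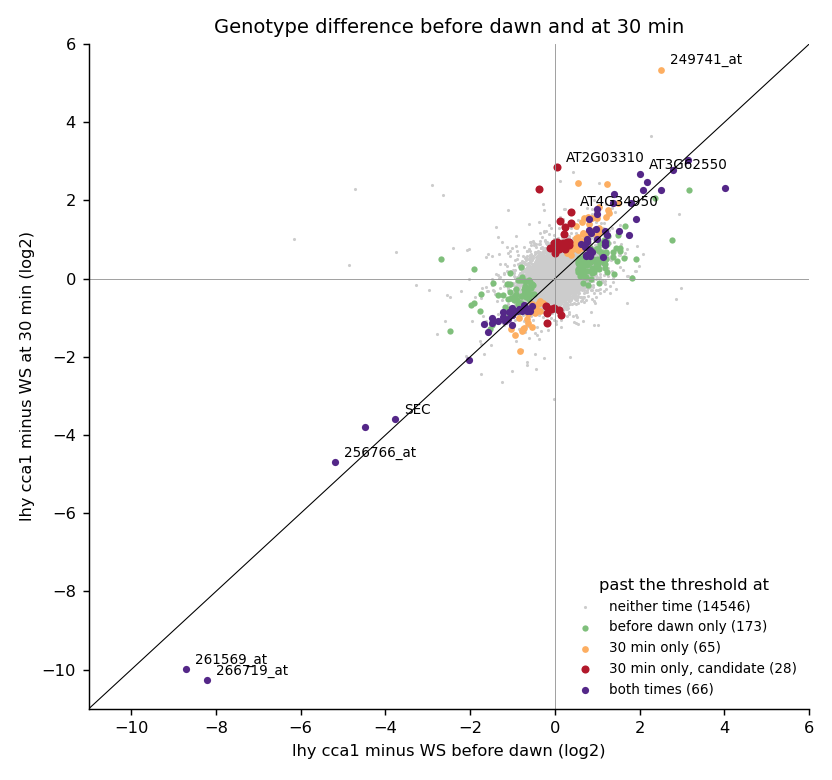
Difference between genotypes at 30 min (y axis, log2, lhy cca1 minus WS) against the difference before dawn (x axis, log2) for all 14878 probe sets, coloured by the times at which each passed the threshold, with equality as the diagonal. The 66 probe sets that passed at both times lie along the diagonal, and the 28 candidates lie near 0 on the x axis.

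The nearest to new differences were 28 probe sets, called candidates here, that passed at 30 min, differed by less than 0.5 log2 before dawn and had an unadjusted p under 0.05 for the change. They comprised 21 higher and 7 lower probe sets and 12 with a listed gene. Their adjusted p for the change was 0.945 or more, so they are listed as values and not as changes. Their median size was 0.89 at 30 min and 0.16 before dawn, which the rule that picked them fixes in part.

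AT5G62350, of the invertase and pectin methylesterase inhibitor family, was the candidate with the smallest p and the only one of the 8 named that kept its call at 30 min with each of the 4 arrays left out. It had 1520.2 and 1258 in lhy cca1 and 1263 and 1183 in WS before dawn. At 15 min it had 1662 and 1497 in lhy cca1 and 1206 and 1000.5 in WS, and at 30 min 1699.8 and 1444 in lhy cca1 and 809 and 844 in WS. The genotypes overlapped before dawn and were apart at both later times, with WS at its lowest signal at 30 min. The difference at 30 min was 0.92 ± 0.135 (limma adjusted p = 0.00254) and its change from before dawn 0.74, with an interval of 0.34 to 1.15 (unadjusted p = 0.0012).

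AT1G25230, a purple acid phosphatase, had 442 and 405 in lhy cca1 and 214 and 247 in WS at 30 min, against 351 and 255 in lhy cca1 and 249 and 313 in WS before dawn (change 0.78, unadjusted p = 0.00654). AT5G35735 had 112 and 94.9 in lhy cca1 and 65.4 and 54.2 in WS at 30 min, against 91.8 and 74.0 in lhy cca1 and 98.2 and 81.6 in WS before dawn (change 0.91, unadjusted p = 0.00245). In both genes the genotypes were apart at 30 min and overlapped before dawn, and both lost their call at 30 min on leaving out any 1 array (adjusted p = 0.0745 to 0.29). AT4G34950, of the major facilitator family of transporters, had 59.4 and 71.6 in lhy cca1 and 13.2 and 30.2 in WS at 30 min, against 40.3 and 37.4 in lhy cca1 and 25.3 and 35.7 in WS before dawn (change 1.34, unadjusted p = 0.01). Its difference at 30 min was 1.11 without WS replicate 1 (adjusted p = 0.233), 1.85 without lhy cca1 replicate 1 (0.0645) and 1.57 without lhy cca1 replicate 2 (0.211). AT2G03310 differed by 0.04 before dawn and was dim in WS at 30 min, so that its change has no measured size.

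Lower candidates took different courses. AT4G33666 had 452 and 357 in lhy cca1 and 491 and 433 in WS before dawn, 297 and 297 in lhy cca1 and 368 and 492 in WS at 15 min, and 129 and 134 in lhy cca1 and 313 and 268 in WS at 30 min (change -0.94, unadjusted p = 0.0024). Signals were thus smaller at each later time in lhy cca1, and in WS the arrays at 30 min lay below those of the earlier times. AT4G28290 had 62.5 and 66.8 in lhy cca1 and 125 and 121 in WS at 30 min, against overlapping values of 59.7 and 66.9 in lhy cca1 and 57.9 and 82.3 in WS at 15 min (change from before dawn -1.07, unadjusted p = 0.00271). AT4G33380 had genotypes that did not overlap at 15 or at 30 min and stood in opposite order at these times. It had 297 and 279 in lhy cca1 and 249 and 293 in WS before dawn, 344 and 288 in lhy cca1 and 138 and 132 in WS at 15 min, and 123 and 163 in lhy cca1 and 287 and 214 in WS at 30 min (change -0.90, unadjusted p = 0.0016). None of these 3 kept its call at 30 min in every fit with 1 array left out (adjusted p up to 0.0992 for AT4G33666, 0.301 for AT4G28290 and 0.37 for AT4G33380). The other named candidates were AT2G21130, a cyclophilin (0.85 at 30 min, 0.26 before dawn), BETA-VPE, a vacuolar processing enzyme (0.93 and 0.33), AT3G15570 (0.77 and 0.10) and AT1G64890 (1.14 and 0.22), all higher in lhy cca1 at 30 min.

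**Figure D5:**
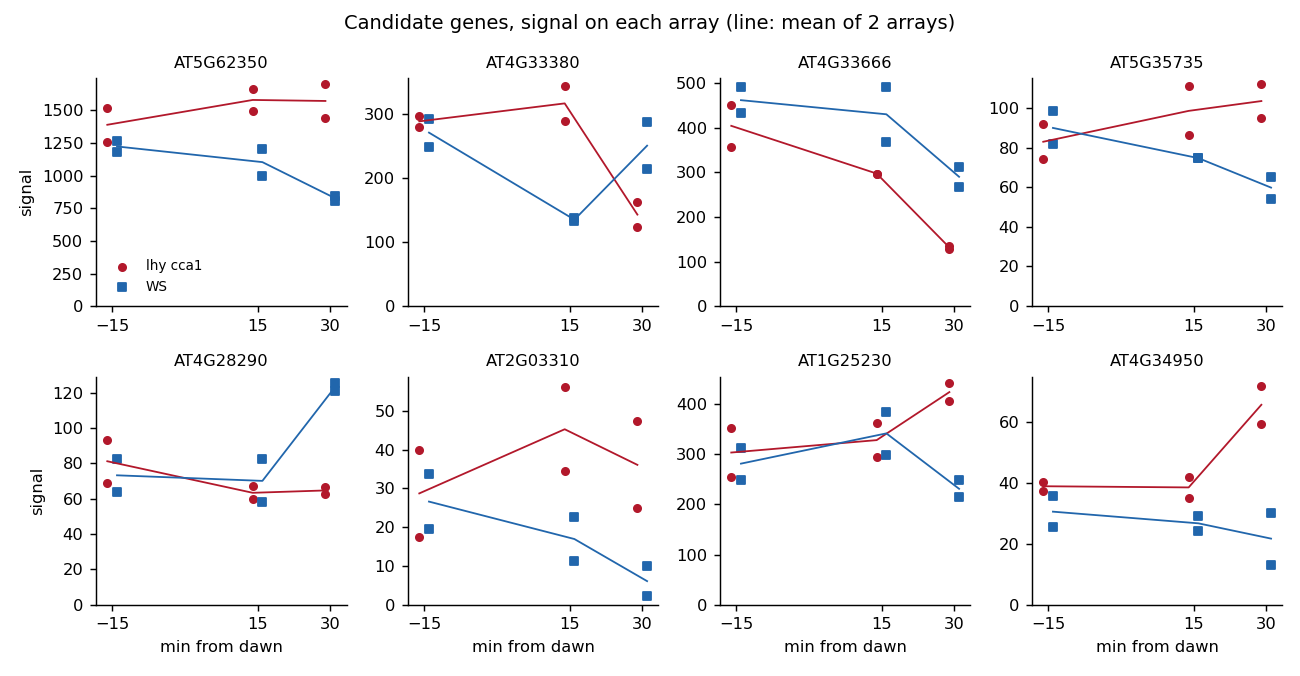
Signal (linear axis from 0) of the 8 named candidates on each array against time from dawn (min), lhy cca1 as red circles and WS as blue squares, with lines through the means of 2 arrays. The genotypes overlap or nearly do so before dawn and are apart at 30 min, as for AT5G62350 with 1699.8 and 1444 in lhy cca1 and 809 and 844 in WS.

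Some differences that passed before dawn were smaller and did not pass at 30 min. A total of 53 probe sets, 24 of them with a listed gene, passed before dawn, differed by less than 0.5 log2 at 30 min and had an unadjusted p under 0.05 for a change towards 0, a rule that mirrors the one for candidates and was set after the data were seen. They comprised 30 higher and 23 lower probe sets before dawn. No change among them passed after adjustment in the main fit, so they too are listed as values and not as changes. 250665_at, with no gene listed here, had the smallest p of all changes (6.58e-06, limma adjusted p = 0.0978). In the check with the replicate number added to the model, its limma adjusted p was 0.0245. It had 392 and 488 in lhy cca1 and 297 and 325 in WS at 30 min, against 422 and 382 in lhy cca1 and 97.6 and 116 in WS before dawn. The lhy cca1 signals were of like size at both times, and the WS signals at 30 min lay above those before dawn on both arrays.

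AT2G20670 had 53.5 and 40.2 in lhy cca1 and 42.5 and 35.2 in WS at 30 min, where the genotypes overlapped, against 576 and 553 in lhy cca1 and 224 and 279 in WS before dawn (1.18 log2). PUB19, a U-box ubiquitin ligase, had 253 and 266 in lhy cca1 and 347 and 336 in WS at 30 min (-0.40), against 26.3 and 6.91 in lhy cca1 and 46.5 and 44.1 in WS before dawn (-1.75, limma adjusted p = 0.0263). The genotypes of PUB19 did not overlap at 30 min, and its lower lhy cca1 array before dawn was dim. AT3G16530 had overlapping signals at 30 min, against 152 and 114 in lhy cca1 and 509 and 259 in WS before dawn. Its WS arrays before dawn lay far apart from each other. rpl22, a ribosomal protein gene of the plastid genome, differed by -0.11 at 30 min and was higher in lhy cca1 before dawn by 0.66 (limma adjusted p = 0.0267). AT3G15450, singled out after its values were seen, passed at both times. It had 251 and 310.2 in lhy cca1 and 128 and 128 in WS at 30 min (1.12), against 1259.9 and 1646 in lhy cca1 and 391 and 466 in WS before dawn (1.75). Its call at 30 min was lost on leaving out any array of that time (adjusted p = 0.0927 to 0.364). The genes named from the 53 were likewise picked with their values seen.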

How the data were processed

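Total RNA of whole seedlings was hybridised to ATH1 arrays, 1 per sample. The authors deposited linear intensity values, made with MAS5 and GCOS, per the submitters' processing notes (versions and annotation build not given in the sources used here). A total of 64 control probe sets were left out of 22810. Values were taken as log2 with no offset. Probe sets above their array's 40th percentile on at least 2 of 16 arrays were tested. A model with 8 group means was fitted with limma 3.58.1 (R 4.3.3), with an intensity trend and 8 residual degrees of freedom, 2-sided, Benjamini-Hochberg over 14878 probe sets. Where a group was dim, folds are bounds. For a gene with several probe sets the brightest on average was used, and 13436 of 13513 probe sets with 1 annotated gene matched TAIR10.1 gene records. Named were the 10 largest called genes in each direction, up to 8 candidates by p, up to 4 called members per list (or its smallest p), clock genes, and the 4 largest unlisted probe sets each way, beside others chosen after their values were seen. Members, lists and rules were chosen with earlier results of these data known. The fit was tested on simulated data. Depth does not apply to arrays, whose number, 2 per group, limits the precision. Promoter sequences were not analysed here.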

Additional observations from a re-analysis of the deposited data

How the results depend on the processing

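Of 625 values recomputed for 42 named probe sets, 465 kept direction and side of the threshold, 156 kept direction but no longer passed, 3 newly passed and 1 reversed, AT5G52660, not called, at -0.438 to 0.199 with 1 array at 30 min left out, the highest without WS replicate 2. The count of probe sets differing at 30 min was 105 (64 higher) with no filter on low values and 66 (43 higher, 23 lower, 28 already present before dawn, 11 candidates) with no intensity trend. Centring on the median of all probe sets gave 57 higher and 98 lower. Centring over tested probe sets (139 called) was chosen after seeing the data. The replicate numbers were not treated as a pairing: deviations of same-numbered arrays correlated between groups at -0.0163 to 0.269, with 15 of 28 pairs of groups above 0.1, and at 0.0709 for lhy cca1 and WS at 30 min. With the replicate number as a block 254 probe sets passed, 161 higher, 93 lower and 119 already present, and the change passed for 2, 250665_at and 256266_at, both smaller at 30 min. Without the 4 lhy cca1 replicate 2 arrays 21 passed, 14 higher, 7 lower, 9 already present and 2 candidates, and the change passed for 1, 266719_at. With 1 array left out in turn, the count ran from 26 to 79 for arrays at 30 min and from 128 to 152 for arrays before dawn, with 17 to 44 higher and 9 to 35 lower for arrays at 30 min, 16 to 51 already present and 2 to 26 candidates. The change passed for 0 to 3 probe sets, and 0 to 1 were new or grown at 30 min: 249741_at without WS 30 min replicate 2 and AT2G04460 without lhy cca1 30 min replicate 1. 266719_at and AT2G04460 were dim in lhy cca1 and 249741_at in WS at 30 min, so these changes have no measured size. The fits with a lone array assume that it varies like the other groups. The causes of these shifts were not tested. Dim signals leave no measured size for 6 of the 159 differences dim in lhy cca1, 11 dim in WS and 2 dim in both.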
